A study of Mus musculus with 2 samples.

Results

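The genes described here are 10 that macrophages use to handle lipid: Apoe, Abca1, Abcg1, Ch25h, Cd36, Msr1, Trem2, Lpl, Fabp5 and Plin2. They were chosen by name, as 10 of the 32285 genes measured, and all 10 were found. None of them was used to define a cell population. Immune cells were sorted as CD45+ for single-cell RNA-seq. They came from tumors of MC38, a colon carcinoma line of mice, grown subcutaneously in WT mice. The study uses WT for Ythdf2 fl/fl mice on a C57BL/6J background, the controls of its Lyz Cre line. The Control library came from tumors that were not irradiated. The IR library came from tumors that received 1 dose of 20 Gy, with cells collected 4 days later. Each library pooled 4 tumors and there was 1 library per group, so the values set 1 library against another and replicate error is unknown. The sample records name the cells CD45+CD11b+Ly6Chi. Gates on T cell and NK cell genes nonetheless held 337 and 169 Control cells and 172 and 261 IR cells.

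Each RNA molecule captured was counted by its unique molecular identifier (UMI). UMIs were summed over all cells of a population in a library and are given as CPM, the gene's UMIs per 1000000 UMIs of that population. Intervals are exact 95% Poisson intervals for levels and exact conditional 95% intervals for ratios, and both cover counting error only. A gene is called higher or lower in IR where its CPM differed by at least 1.5-fold and its intervals in the libraries did not overlap. Monocyte/macrophage cells carried at least 8 UMIs of 18 class markers per 1000 UMIs and at most 1 UMI of the markers of each other lineage. This gave 2616 Control cells with 22495084 UMIs and 1474 IR cells with 14478169 UMIs. Cells with more UMIs of 6 monocyte genes (Ly6c2, Plac8, Ms4a4c, Ccr2, Chil3, Hp) than of C1qa, C1qb and C1qc formed the monocyte gate, with 695 Control and 1014 IR cells. Cells with more of the C1q genes formed the macrophage gate, with 1715 Control and 343 IR cells. The macrophage gate therefore held 65.6% of the class in Control and 23.3% in IR. Marker genes divided the gates further into 9 subsets, which include the monocytes and the C1q macrophages left outside the marked ones. The gates cut a continuous range: 479 Control and 260 IR cells lay within 1 UMI of the cut. A further 1011 Control and 890 IR cells, 23.1% and 27.8% of the cells kept, fell in no gate. 7 barcodes with at least 1000 UMIs occurred in both libraries.

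Macrophages take up lipoproteins, dying cells and free fatty acids, and either store the lipid, burn it or pass it on. Scavenger receptors bring lipid in, droplet proteins hold it as esters, and ATP-driven transporters move cholesterol out of the cell onto apolipoprotein particles. When sterols accumulate, liver X receptors turn on the efflux genes, while the SREBP factors that drive sterol synthesis are held back. In tumors, macrophages with a lipid-handling program are often marked by Apoe and Trem2.

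In the class as a whole, 4 of the 10 genes were lower in IR and 0 were higher by the call rule. Over all 12097 genes compared, 11.0% were called lower and 6.60% higher. The 4 were Apoe, Ch25h, Lpl and Trem2, with log2 ratios of -1.63, -1.48, -0.98 and -0.63. The Trem2 call was lost with TMM, a trimmed-mean scaling of the libraries (-0.55), and Plin2, at 0.58 just under a call, was called higher in the class under 5 of 14 alternatives. The median log2 ratio of the 10 was -0.30, against -0.09 for all genes. Within the gates the picture differed. In the monocyte gate 2 of 10 were lower (Apoe and Lpl) and 0 higher, against 4.05% and 3.64% of 10585 genes. In the macrophage gate 2 were lower (Apoe and Ch25h) and 2 higher (Cd36 and Plin2), against 5.63% and 4.64% of 11344 genes. The median of the 10 was -0.01 in the monocyte gate and -0.07 in the macrophage gate, where all genes had medians of -0.07 and -0.06.

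**Figure D1:**
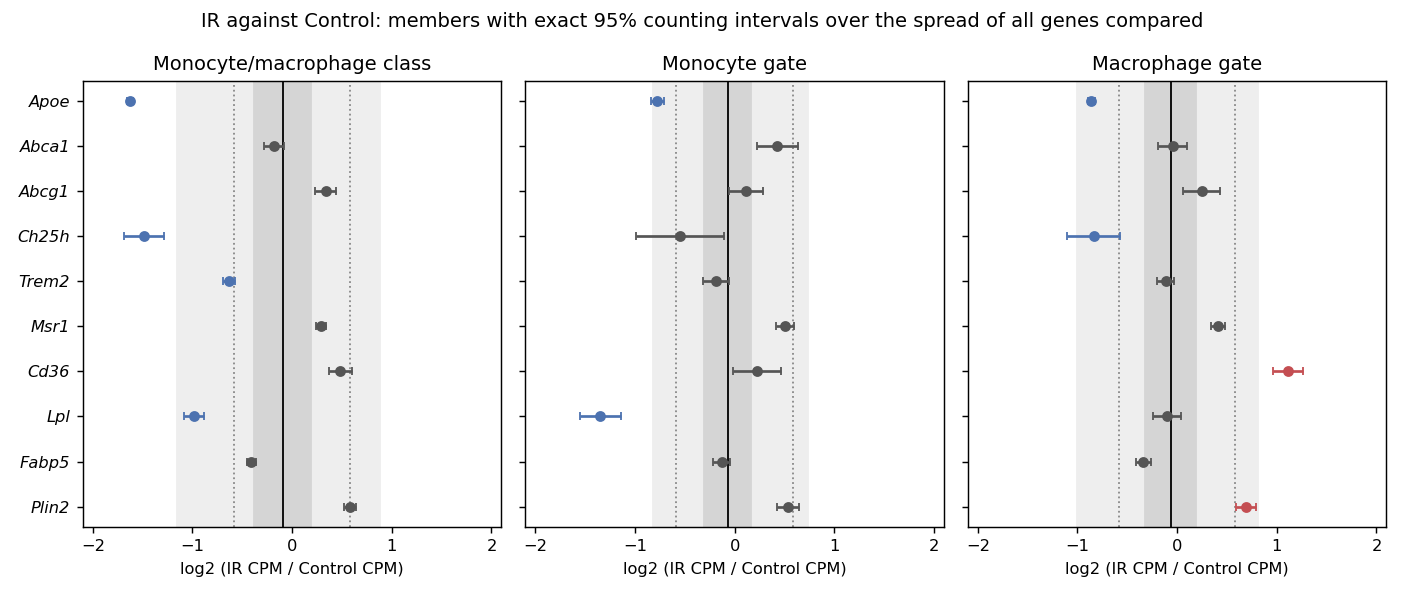
The log2 ratio of IR to Control CPM is plotted for each gene in the class and in both gates, with exact 95% counting intervals. Dark and light grey bands hold the middle 50% and 90% of all genes compared, the black line is their median, dotted lines mark 1.5-fold, and blue and red points were called lower and higher. Apoe is left of the dotted line in all 3 panels, and Cd36 (1.11) and Plin2 (0.69) are the red points of the macrophage gate.

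The bases before the start site are shown for Apoe and Ch25h, both lower in IR macrophages, and for Plin2, which was higher. Each is the stretch of 250 bases just upstream of the RefSeq start site on GRCm38.p6, the build the deposited data use, written 5′ to 3′ on the gene's own strand. Capitals mark matches to the motifs searched. Windows were held for 6 of the 10 genes, with 8 start sites.

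Apoe, chr7:19699189-19699438, minus strand: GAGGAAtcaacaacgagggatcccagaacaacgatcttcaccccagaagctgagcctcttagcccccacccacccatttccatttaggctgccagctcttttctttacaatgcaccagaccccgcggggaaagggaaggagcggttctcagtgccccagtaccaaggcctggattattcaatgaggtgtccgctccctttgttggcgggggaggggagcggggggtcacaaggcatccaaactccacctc
Ch25h, chr19:34475149-34475398, minus strand: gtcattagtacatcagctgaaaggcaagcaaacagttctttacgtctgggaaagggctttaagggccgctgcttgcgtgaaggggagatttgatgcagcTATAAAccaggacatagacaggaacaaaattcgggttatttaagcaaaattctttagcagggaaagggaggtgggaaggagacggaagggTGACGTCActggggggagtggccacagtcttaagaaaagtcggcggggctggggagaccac
Plin2, chr4:86670060-86670309, minus strand: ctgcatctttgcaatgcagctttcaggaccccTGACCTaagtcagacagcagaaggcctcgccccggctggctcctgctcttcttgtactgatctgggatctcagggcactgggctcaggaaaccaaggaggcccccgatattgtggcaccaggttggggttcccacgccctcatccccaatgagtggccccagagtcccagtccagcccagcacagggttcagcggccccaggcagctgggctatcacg

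The Ch25h window held a cAMP response element, TGACGTCA, that began at position -61 from the start site, and 1.55% of the 32851 windows of the same length held one. It also held a TATAAA at position -151 (12.4% of windows). The Plin2 window held AGGTCA, the unit of nuclear receptor elements, on the other strand at position -218 (14.02% of windows). The Apoe window shown held only a PU.1 core, GAGGAA, at its far end (23.3% of windows). Apoe windows of other start sites were searched but are not shown. That of start site 19698621 held TATAAA at position -96 and, on the other strand, at -100. That of start site 19698398 held a PU.1 core at position -132. Both strands were searched. None of the 8 windows held 2 AGGTCA units 4 bases apart, the DR4 arrangement of liver X receptors (0.0152% of windows), or 1 base apart, the DR1 arrangement of PPARs (0.0335%). None held 2 GAAA repeats 2 bases apart, an interferon response element (2.98%). The other motifs searched were AP-1 (TGANTCA, 6.75%), the E-box CACGTG (6.02%) and the GC box GGGCGG (32.7%), which the 3 windows shown did not hold. AGGTCA is contained in DR4 and DR1, and a match describes these letters only.

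Apoe (ENSMUSG00000002985, chr7:19696109-19699188, minus strand) encodes apolipoprotein E, the particle protein that accepts cholesterol leaving the cell. It stood at 3267 CPM in Control macrophages (interval 3239 to 3296) and at 1799 CPM in IR macrophages (1757 to 1841), a log2 ratio of -0.86. In the monocyte gate it stood at 708 CPM in Control (684 to 733) and at 414 CPM in IR (401 to 427), a log2 ratio of -0.77. The level was thus lower in IR in both gates, and in both libraries more than 4-fold higher in macrophages than in monocytes, by 4.61-fold in Control and 4.35-fold in IR. It was lower in IR in all 7 monocyte and macrophage subsets with at least 20 cells in each library, with log2 ratios from -0.50 in macrophages marked by Clec5a, Fcgr4 and Gpr84 to -2.02 in nonclassical monocytes. When each cell was thinned to 1000 UMIs, 67.1% of Control macrophages (64.8 to 69.3) and 44.6% of IR macrophages (39.27 to 50.04) held an Apoe UMI. Without thinning the shares were 88.0% and 62.4%, at a median of 8628 and 9773 UMIs per cell.

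Free RNA carried much Apoe. Droplets with 10 to 100 UMIs, taken as empty, held 1744 CPM of Apoe in Control (1705 to 1784) and 447 CPM in IR (424 to 471). In the T cell gate, where Apoe is background, it stood at 174 CPM in Control and at 60.3 CPM in IR. There 11.3% and 2.91% of thinned T cells held a UMI (unthinned 25.2% and 12.8%, median depth 4434 and 5231.5 UMIs). The empty-droplet profile was then subtracted, at shares of 17.7% to 22.2% of UMIs set from lymphocyte genes. The shares came from gates with no limit on other lineages, so cells mixed with lymphocytes could raise them, and no other shares were tried. After the subtraction the log2 ratio of Apoe stayed at -0.82 in macrophages but was -0.05 in monocytes and no longer called. The lower Apoe of the monocyte gate was also not called (-0.53) when the gate used Ccr2, Chil3 and Hp alone. Plin2 in the monocyte gate moved the other way, from 0.53 to 0.60, and was called after the subtraction. The ratios of Trem2 and Ch25h in that gate, which were not called, moved from -0.19 to 0.02 and from -0.55 to -0.28.

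The Apoe level also depended on a small subset. Resident-like macrophages, gated on Lyve1, Folr2, Cd163 and Cbr2, held 15514 CPM in Control (15158 to 15876; 90 cells), the highest of the subsets, and 3404 CPM in IR, from 149 Apoe UMIs in 6 cells. They supplied 13.8% of the Apoe UMIs of Control macrophages. Without them the log2 ratio in the macrophage gate was -0.70 (-0.74 to -0.67). With the subset shares of IR held at those of Control, the class ratio of Apoe moved from -1.63 to -0.85. The Control level in the other macrophage subsets ran from 973 CPM in the Dcstamp and Ccl17 subset to 3384 CPM in those outside the marked subsets.

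Abca1 (ENSMUSG00000015243, chr4:53030787-53159895, minus strand) and Abcg1 (ENSMUSG00000024030, chr17:31057675-31117988, plus strand) encode the transporters that load cholesterol onto apolipoproteins and onto HDL. Neither was called in either gate, though Abca1 was called higher in the monocyte gate under 2 of 14 alternatives. Abca1 was higher in IR in the monocyte gate, at 77.7 CPM (72.1 to 83.6) against 57.8 CPM in Control (51.1 to 65.1), a log2 ratio of 0.43. In the macrophage gate it stood at 118 CPM in IR (108 to 129) and 122 CPM in Control (117 to 128), with a ratio of -0.05 whose interval ran from -0.19 to 0.10. Abca1 was thus 2.11-fold higher in macrophages than in monocytes in Control and 1.52-fold higher in IR. Abcg1 showed the opposite order, being 1.38-fold higher in monocytes than in macrophages in Control and 1.26-fold in IR. It was highest in nonclassical monocytes, at 161 CPM in Control (108 to 231) and 205 CPM in IR (164 to 252). In Control that level overlapped the 146 CPM of resident-like macrophages, while in IR it lay above all other subsets. Between IR and Control, Abcg1 had overlapping intervals in both gates.

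Ch25h (ENSMUSG00000050370, chr19:34473778-34475164, minus strand) encodes cholesterol 25-hydroxylase, which makes the oxysterol 25-hydroxycholesterol and is an interferon-inducible gene in mice. It was lower in IR macrophages, at 34.7 CPM (29.2 to 41.0) against 61.9 CPM in Control (58.1 to 65.9), a log2 ratio of -0.84. In the monocyte gate it rested on 78 Control and 105 IR UMIs, at 16.7 and 11.4 CPM, with overlapping intervals and a log2 ratio of -0.55. It was called lower there under 6 of 14 alternatives, and the ratio reached -1.39 with barcodes of at least 500 UMIs. Over subsets it was lowest in classical Ly6c2 monocytes in Control, at 4.08 CPM from 7 UMIs, and highest in the Clec5a, Fcgr4 and Gpr84 macrophages, at 105 CPM. The latter held 18.8 CPM in IR, from 6 UMIs in 31 cells. Over the whole macrophage gate Isg15, an interferon-stimulated gene, stood at 68.5 CPM in Control but 479 CPM in IR. In a gate limited to barcodes with at least 2000 UMIs the Ch25h ratio was -0.57, under the size of a call.

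**Figure D2:**
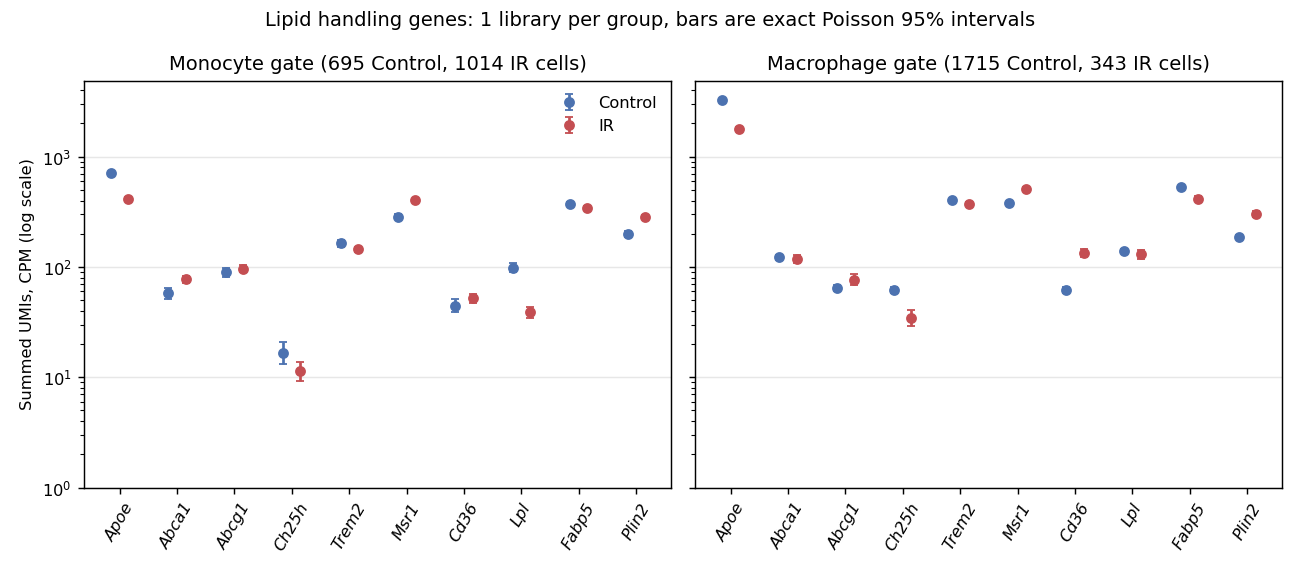
CPM of each gene (log scale) is plotted for the monocyte gate on the left and the macrophage gate on the right, with Control in blue and IR in red. Points are 1 library each and bars are exact Poisson 95% intervals, which show Apoe lower in IR in both gates, Lpl called lower in the monocyte gate (98.4 and 38.7 CPM), and Cd36 at 61.8 and 134 CPM in macrophages.

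Cd36 (ENSMUSG00000002944, chr5:17781690-17888801, minus strand) encodes a scavenger receptor for oxidized lipoproteins and long-chain fatty acids. In the macrophage gate it stood at 61.8 CPM in Control (58.0 to 65.8) and 134 CPM in IR (123 to 146). The IR level was 2.16-fold higher, a log2 ratio of 1.11. In the monocyte gate the levels were 44.5 and 52.0 CPM with overlapping intervals. The ratio was positive in all 7 subsets with at least 20 cells in each library. It was largest in cycling C1q macrophages, at 30.4 CPM in Control and 104 CPM in IR, a log2 ratio of 1.77. In the macrophages marked by Mmp12 and Mmp13 it rose from 113 to 243 CPM, and 243 CPM was the highest IR level of any subset. Classical Ly6c2 monocytes had the lowest levels in both libraries, 18.6 CPM in Control and 36.7 CPM in IR. At 1000 UMIs per cell 5.598% of Control and 9.91% of IR macrophages held a Cd36 UMI (unthinned 20.1% and 30.3%), and 0.297% and 0 of 172 T cells did. A count of 0 in 172 cells allows a share of cells with a UMI of up to 1.74% at that depth. Without thinning, 1.19% of Control and 2.91% of IR T cells held one.

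Msr1 (ENSMUSG00000025044, chr8:39581685-39642673, minus strand) encodes the class A scavenger receptor for modified LDL. It was higher in IR without reaching 1.5-fold, at 404 against 284 CPM in monocytes (log2 ratio 0.51) and 507 against 381 CPM in macrophages (0.41). The intervals of the libraries lay apart in both gates. In classical Ly6c2 monocytes the log2 ratio was 0.62, from 262 to 403 CPM. In the Mmp12 and Mmp13 macrophages, where Msr1 stood at 547 and 533 CPM, the ratio of -0.04 had an interval from -0.21 to 0.14.

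Trem2 (ENSMUSG00000023992, chr17:48346401-48354147, plus strand) encodes a receptor for lipids and lipoproteins that signals through Tyrobp. Its ratio was -0.63 in the class, but in the gates it was -0.11 in macrophages, from 404 to 373 CPM, and -0.19 in monocytes, from 164 to 144 CPM. With subset shares held at those of Control the class ratio was -0.12. Trem2 was 2.46-fold higher in macrophages than in monocytes in Control and 2.59-fold in IR. It was higher in IR in classical Ly6c2 monocytes, at 131 against 96.1 CPM, and lower in monocytes outside the marked subsets, at 175 against 211 CPM. At 1000 UMIs per cell 29.1% of Control (27.0 to 31.3) and 30.03% of IR macrophages (25.2 to 35.2) held a Trem2 UMI, with intervals that overlapped (unthinned 80.9% and 81.3%). In the T cell gate 0.593% and 0 of 172 did (unthinned 6.82% and 7.56%).

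Lpl (ENSMUSG00000015568, chr8:68880491-68907448, plus strand) encodes lipoprotein lipase, which frees fatty acids from circulating triglyceride. It was lower in IR monocytes, at 38.7 CPM (34.8 to 42.9) against 98.4 CPM in Control (89.6 to 108), a log2 ratio of -1.35. In macrophages it stood at 129.8 CPM in IR (119 to 141) and 139 CPM in Control (133 to 145), with overlapping intervals. In the Clec5a, Fcgr4 and Gpr84 macrophages Lpl was higher in IR, at 234 CPM from 75 UMIs against 45.2 CPM from 22 UMIs in Control, a log2 ratio of 2.37 (1.67 to 3.13). The share of cells with Lpl was not higher: without thinning, 12.9% of 31 IR cells and 26.9% of 52 Control cells held a UMI. The IR UMIs thus lay in few cells, and the counting interval does not cover such clustering. In C1q macrophages outside the marked subsets Lpl was lower, at 92.6 against 147 CPM (log2 ratio -0.66, -0.89 to -0.44). In the Mmp12 and Mmp13 macrophages, which had the highest Control level, it stood at 229 and 225 CPM. In empty droplets Lpl was 70.8 CPM in Control but 34.6 CPM in IR. After the free RNA was subtracted the monocyte ratio was -1.42. It was -1.09 with subset shares held at those of Control. The monocyte gate itself differed between the libraries. Mmp12 and Mmp13 summed there to 903 CPM for Control against 420 CPM for IR, and the C1q genes to 796 against 543 CPM. In classical Ly6c2 monocytes both sums were instead higher in IR, at 282 against 125 CPM and 571 against 523 CPM. Their part in the Lpl ratio was not tested.

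Fabp5 (ENSMUSG00000027533, chr3:10012548-10016607, plus strand) encodes a cytosolic carrier of fatty acids. It was lower in IR macrophages, at 417 CPM (397 to 437) against 527 CPM in Control (515 to 538), a log2 ratio of -0.34 that did not reach 1.5-fold and was 0.02 when cells were thinned to 2000 UMIs for gating. In monocytes it stood at 374 CPM in Control and 342 CPM in IR. The dendritic cell gate held 4049.9 CPM in Control and 4780.4 CPM in IR, above every monocyte and macrophage subset. The 9 dendritic cell markers summed to 36.5 CPM in the Control class and 52.4 CPM in the IR class, and their part in the Fabp5 values was not tested. Among macrophages the Mmp12 and Mmp13 subset was highest in both libraries, at 903 CPM in Control and 747 CPM in IR. The ratio was -0.61 in C1q macrophages outside the marked subsets and 0.24 in cycling ones.

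Plin2 (ENSMUSG00000028494, chr4:86648386-86670060, minus strand) encodes perilipin 2, which coats lipid droplets. It was higher in IR in both gates. Macrophages held 188 CPM in Control (181 to 194) and 303 CPM in IR (286 to 321), a log2 ratio of 0.69 that was called. Monocytes held 198 CPM in Control (185 to 211) and 286 CPM in IR (275 to 297), a ratio of 0.53 just under the 1.5-fold of a call. All 7 subsets with at least 20 cells in each library were higher in IR, the largest ratio being 1.56 in the Clec5a, Fcgr4 and Gpr84 macrophages, from 144 to 425 CPM. Outside the class, neutrophils held 325 CPM in Control (193 to 514; 27 cells) and 533 CPM in IR (468 to 605; 161 cells). T cells held 45.20 and 74.96 CPM, also higher in IR. Empty droplets held 151 and 156 CPM, with overlapping intervals. At 1000 UMIs per cell 17.0% of Control and 28.3% of IR macrophages held a Plin2 UMI (unthinned 66.7% and 80.8%), against 3.86% and 4.65% of T cells.

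**Figure D3:**
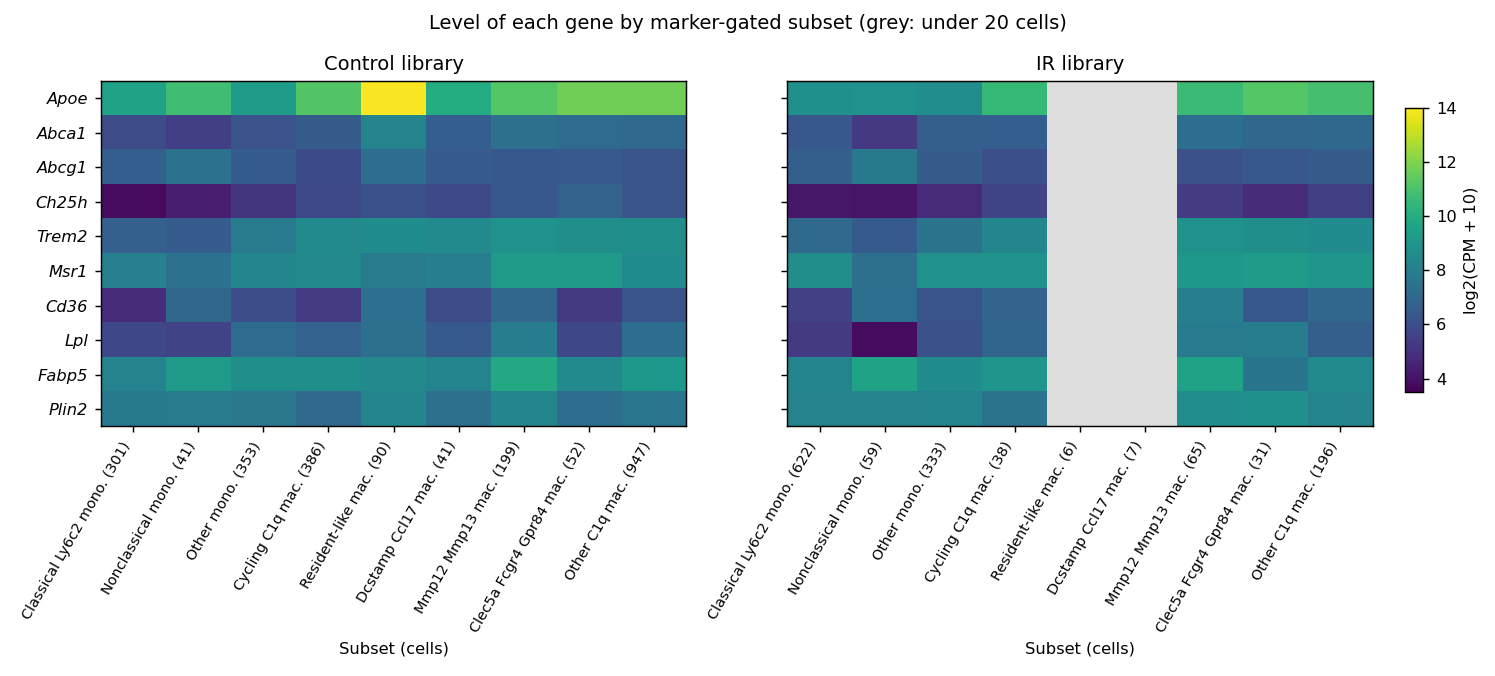
Each tile is the level of a gene, as log2(CPM + 10), in a marker-gated subset of the Control library (left) or the IR library (right), with the number of cells in brackets and grey where a subset had under 20 cells. The brightest tile is Apoe in resident-like macrophages of Control (15514 CPM), and Abcg1 is highest in nonclassical monocytes in both panels.

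The macrophage gate itself was not alike in the libraries. The 6 monocyte genes summed to 784 CPM in Control macrophages and 1675 CPM in IR macrophages, and the C1q genes to 8511 and 6752 CPM. Cycling cells made up 386 of 1715 Control and 38 of 343 IR macrophages. The 6 neutrophil markers summed to 82.0 and 198 CPM there, while the neutrophil gate itself held 71256 and 67327 CPM of them. The part of these differences in the ratios above was not tested. With subset shares held at those of Control, the macrophage gate ratio was 1.03 for Cd36, 0.61 for Plin2, -0.88 for Apoe and -0.76 for Ch25h. Each moved by at most 0.09 from its unweighted value. In the class, in contrast, holding the shares moved Lpl from -0.98 to -0.41, Ch25h from -1.48 to -0.73 and Cd36 from 0.48 to 0.95.

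**Figure D4:**
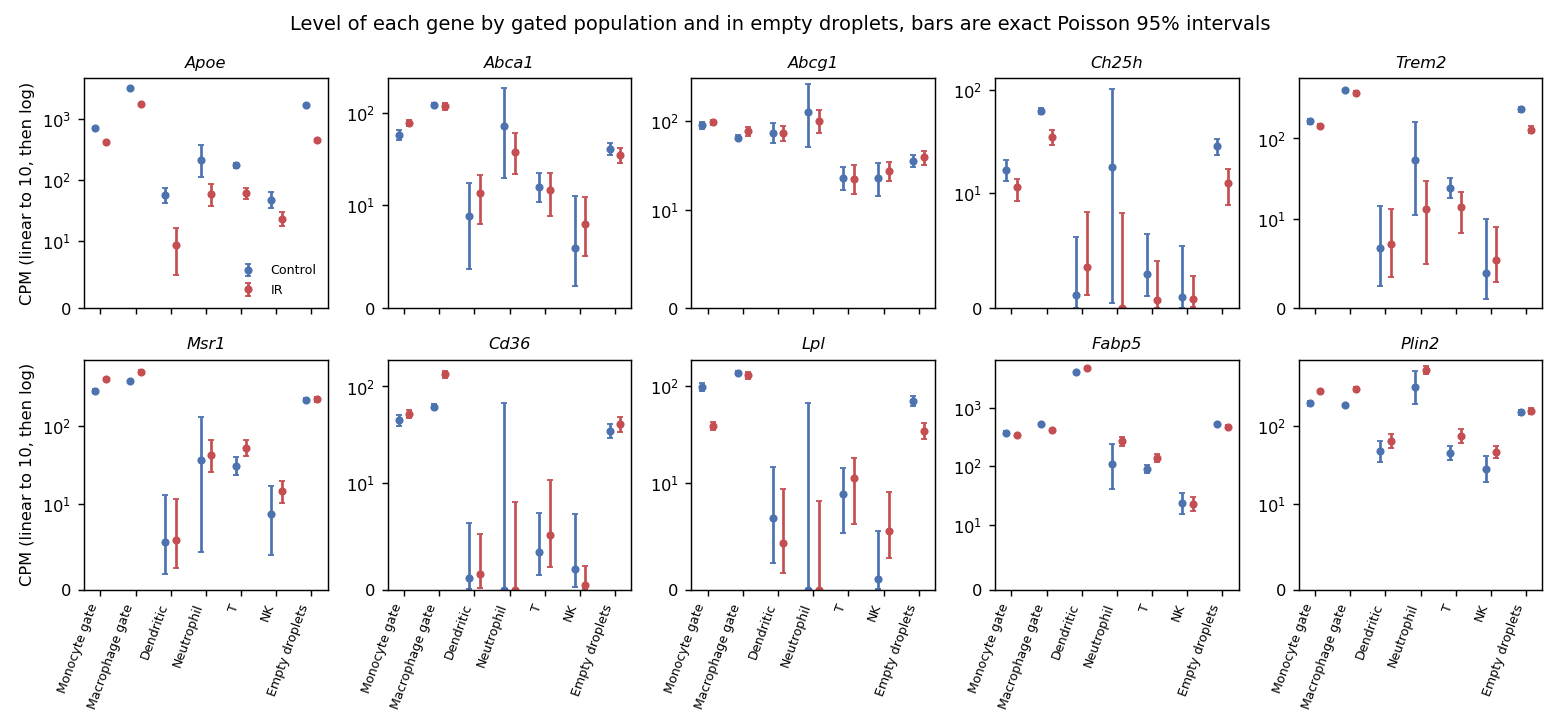
CPM of each gene (linear to 10, then log) is plotted for the gates of the class, 4 other lineages and empty droplets, with Control in blue, IR in red and exact Poisson 95% intervals. Apoe falls between Control and IR in every population shown and in empty droplets (1744 to 447 CPM), Fabp5 peaks in dendritic cells and Plin2 in neutrophils.

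The levels of the 10 genes were compared with each other over 12 populations, the subsets of either library that held at least 50 cells. These populations share libraries and gate genes, so the correlations are descriptions. Ch25h and Trem2 ran most closely together (Pearson r = 0.91), followed by Abca1 with Trem2 (0.85) and Abca1 with Apoe (0.83). Cd36 and Plin2, the genes higher in IR macrophages, had r = 0.77. Abcg1 ran against Msr1 (-0.72), and its r with Abca1 was -0.30. Among all other genes of at least 50 CPM in 1 or more populations, the closest to Apoe were Gm10134, Prxl2b and Hpgds (0.97, 0.96 and 0.96). Those closest to Abca1 were Brox, Sash1 and Plau (0.97, 0.97 and 0.96), and to Abcg1 Pdlim5, Jdp2 and Mylip (0.96, 0.96 and 0.95). Those closest to Trem2 were Cd81, Naglu and Fdx2 (0.97 each), and to Ch25h Cd81, Lman1 and S100a1 (0.95, 0.94 and 0.94). Lpl was closest to Vat1, Cd200r4 and Ubald1 (0.95, 0.94 and 0.93) and Msr1 to Il7r, Creb5 and Aldoa (0.95, 0.95 and 0.94). For the remaining genes the likeness was lower: Plin2 with Atp6v1e1, Tmem189 and Cd53 (0.89, 0.88 and 0.87), Cd36 with Cd300ld, Gpr137b and Serinc1 (0.87, 0.87 and 0.82), and Fabp5 with Sgk1, Gpr137b and Dnase1l1 (0.83, 0.81 and 0.78).

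Other genes of lipid metabolism were read by the same rule in 8 lists. The list with the largest share of called genes was cholesterol synthesis. It holds enzymes of the path from acetyl-CoA to cholesterol and also regulators of that path. Of its 21 genes, 18 were lower and 0 higher in IR macrophages, with a median log2 ratio of -1.03. In monocytes 10 of 21 were lower and 0 higher, with a median of -0.79. Hmgcs1, the synthase at the entry to the pathway, stood at 92.98 CPM in Control and 31.7 CPM in IR macrophages, and Cyp51, a sterol demethylase, at 93.3 and 30.4 CPM. Acat2, which makes acetoacetyl-CoA, stood at 10.1 and 2.496 CPM, from 162 and 10 UMIs. These shares stand against the 5.63% of all genes called lower in macrophages and the 4.05% in monocytes.

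Fatty acid synthesis was lower as well, in 7 of 10 genes compared in macrophages and 4 of 9 in monocytes, and higher in 0. Fasn, the fatty acid synthase, stood at 28.0 CPM in Control and 9.23 CPM in IR macrophages, and Elovl6, which lengthens palmitate, at 9.89 and 3.24 CPM. Fads2, a desaturase, fell from 342 UMIs to 3, a log2 ratio of -4.84 with a counting interval from -7.12 to -3.28. Fatty acid oxidation had 0 of 15 genes called in either direction in either gate, with medians of -0.14 in macrophages and -0.04 in monocytes. T cells, outside the class, held 47.7 CPM of Hmgcs1 in Control and 35.3 CPM in IR, and 42.7 and 27.2 CPM of Fasn, with overlapping intervals for both. Empty droplets fell with the macrophages, from 69.7 to 34.2 CPM for Hmgcs1, from 62.3 to 28.7 CPM for Cyp51 and from 12.03 to 3.23 CPM for Fads2, with intervals apart. The part of free RNA in the synthesis lists was not tested.

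**Figure D5:**
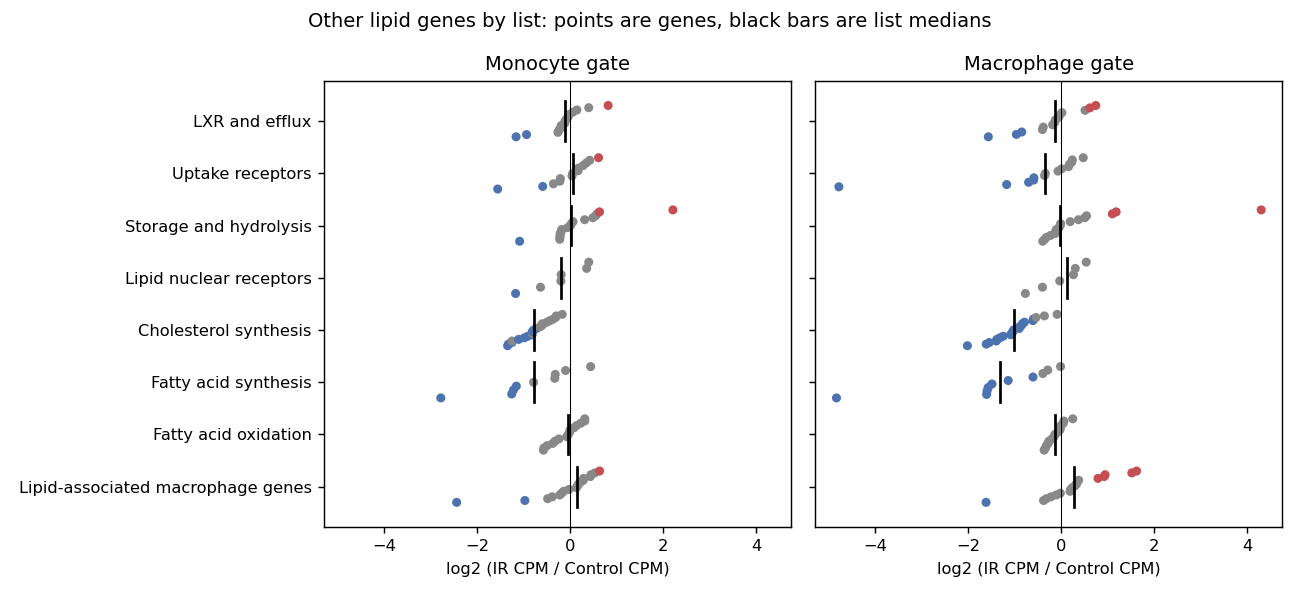
Each point is a gene of the list named at the left, placed at its log2 ratio of IR to Control CPM in the monocyte gate (left) or the macrophage gate (right), with called genes in blue (lower) and red (higher), other genes in grey and list medians as black bars. The cholesterol synthesis and fatty acid synthesis lists have medians of -1.03 and -1.32 in macrophages, and the fatty acid oxidation list has no coloured point.

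Storage and hydrolysis genes had 3 higher and 0 lower of 17 in macrophages, and 2 higher and 1 lower of 17 in monocytes. Over all genes compared, 4.64% were called higher and 5.63% lower in macrophages, and 3.64% and 4.05% in monocytes. A count of 1 gene is not read as a result about a list. Hilpda, a droplet protein that inhibits lipolysis, rose from 115 to 246 CPM in macrophages and from 161 to 249 CPM in monocytes. Neutrophils held 1571 and 1433 CPM of it, and empty droplets 164 and 209.6 CPM. Dgat2, which makes triglyceride, rose from 6.07 to 13.7 CPM in macrophages. Empty droplets held 4.86 and 11.6 CPM of Dgat2, and neutrophils 54.2 CPM, from 3 UMIs, and 69.2 CPM. G0s2, an inhibitor of triglyceride lipase, rose from 0.876 to 17.2 CPM in macrophages and from 2.57 to 11.8 CPM in monocytes. It is also a marker of the neutrophil gate. Cells of the class could hold at most 1 UMI of those markers, so the gating limited its level. Neutrophils held 4028 CPM of G0s2 in Control and 7162 CPM in IR, and empty droplets 10.4 and 85.9 CPM, and the part of neutrophils and free RNA in the rises of Hilpda, Dgat2 and G0s2 was not tested. Acsl3, a fatty acyl-CoA ligase, was lower in monocytes, at 4.02 against 8.56 CPM.

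Of the liver X receptor and efflux list, 2 of 14 genes were higher and 3 lower in macrophages, and 1 of 15 was higher and 2 lower in monocytes. For this list and the next ones, the shares over all genes were again 4.64% higher and 5.63% lower in macrophages. They were 3.64% and 4.05% in monocytes. Stard4, a sterol carrier, fell from 41.6 to 13.98 CPM in macrophages. Pltp, the phospholipid transfer protein, fell from 100.96 to 52.6 CPM in monocytes and from 198 to 109.8 CPM in macrophages, and Abcg3 from 9.76 to 4.99 CPM in macrophages. Stard3 rose from 30.8 to 54.1 CPM in monocytes, and Apoc2, an activator of lipoprotein lipase, from 54.7 to 91.3 CPM in macrophages. Uptake receptors had 0 higher and 5 lower of 15 in macrophages and 1 higher and 2 lower of 13 in monocytes. Mrc1, the mannose receptor, fell from 172 to 58.1 CPM in monocytes and from 407 to 180.2 CPM in macrophages, and Axl, a receptor for dying cells, from 271 to 166 CPM in macrophages. Cd163, which is also a marker of the resident-like gate, fell from 110 UMIs to 1 in macrophages (log2 ratio -4.79, -10.10 to -2.28). Slc27a4, a fatty acid transporter, rose from 13.5 to 20.5 CPM in monocytes. Neutrophils held 54.2 CPM of it in Control, from 3 UMIs, and 91.5 CPM in IR, and neutrophil markers in the monocyte gate summed to 92.6 and 217 CPM. Empty droplets held 217 and 54.3 CPM of Mrc1, 111 and 40.7 CPM of Pltp, 120.3 and 62.3 CPM of Axl and 36.3 and 20.7 CPM of Stard4. The part of neutrophils and free RNA in these changes was not tested. Of 6 genes compared in the gates from the lipid nuclear receptor list, 0 were called in macrophages and 1 in monocytes. The latter was Ppargc1b, a coactivator and not itself a receptor, at 6.63 CPM in Control and 2.93 CPM in IR.

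The list of genes known from lipid-associated macrophages had 5 higher and 1 lower of 18 in macrophages, and 1 higher and 2 lower of 18 in monocytes. All genes compared had 4.64% higher and 5.63% lower in macrophages, and 3.64% and 4.05% in monocytes. Spp1, which encodes osteopontin, rose from 2115 to 6044 CPM in macrophages and from 1720 to 2662 CPM in monocytes. It was also in empty droplets, at 1351 CPM in Control and 2247 CPM in IR. Spp1 was higher in IR outside the class too, at 1533 and 2410 CPM in NK cells. Levels were 1066 and 2705 CPM in neutrophils, 215 and 642 CPM in T cells, and 44.6 and 38.1 CPM in dendritic cells. The part of free RNA in the Spp1 rise was not tested. Ctsl, a lysosomal protease, rose from 632 to 1214 CPM in macrophages, and Csf1, the macrophage growth factor, from 5.69 to 17.5 CPM. Neutrophils held 415 and 749.9 CPM of Csf1, and their part in its rise was not tested. Igf1 was lower in both gates, at 9.48 against 29.2 CPM in macrophages and 1.85 against 10.1 CPM in monocytes. Empty droplets held 16.7 CPM of Igf1 in Control and 0.969 CPM in IR, the latter from 3 UMIs, and their part was not tested. Gpnmb was higher in IR macrophages, at 16.2 against 8.57 CPM, and lower in IR monocytes, at 4.24 against 8.34 CPM.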

How the data were processed

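Single-cell libraries of CD45+ cells were made with the 10x Genomics 3' v3.1 kit, 1 from Control and 1 from IR tumors. The authors deposited unfiltered counts, whole-number UMIs per gene and barcode, aligned to mm10. The submitters' processing notes name Cell Ranger 6.0.1, while the file header names release 4. The tables held 1067746 Control and 990007 IR barcodes. Barcodes with at least 1000 UMIs, at least 200 genes and at most 25% mitochondrial UMIs were kept. The study removed doublets with DoubletFinder. Here the top 6% of Scrublet scores were removed (scanpy 1.11.5), because its automatic threshold marked 0 barcodes. This left 4384 Control and 3201 IR cells with medians of 7001 and 7893 UMIs. Cells were thinned to 1000 UMIs for gating. Subsets needed 2 UMIs of a subset list or 3 of the cycling genes, and other lineages needed 3 UMIs of their list (neutrophils 5). These limits were set after looking at the score distributions.

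Raw UMIs were summed per population and library, and genes with at least 20 UMIs over both libraries were compared. With 1 library per group no test was made. Interval and call functions were tested on simulated data. Python 3.11.15, numpy 2.4.6, scipy 1.17.1, pandas 2.3.3 and edgeR 4.0.16 (TMM factors only) were used. The genes described, the marker lists and the lipid lists were chosen with earlier results of these data known. Besides the 10 genes, the text names up to 3 genes per lipid list and direction with the largest called ratio in either gate, and the 3 genes most alike to each of the 10. Genes named elsewhere are gate or label markers. Promoter sequences are from RefSeq and gene positions from GENCODE on GRCm38. The 15 alternatives tried changed the barcode minimum, mitochondrial limit, doublet removal, thinning, gates, scaling, free RNA and call rule.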

Additional observations from a re-analysis of the deposited data

Results flagged for a closer look

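For 3 of the 10 genes the IR to Control ratio had opposite directions in different subsets, each with at least 20 UMIs over both libraries and a counting interval that excluded 0. With 1 library per group, the difference between subsets was not tested.

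Lpl, the lipoprotein lipase, had a log2 ratio of 2.37 in the Clec5a, Fcgr4 and Gpr84 macrophages. There 12.9% of 31 IR cells and 26.9% of 52 Control cells held an Lpl UMI without thinning, so the ratio rests on few IR cells. The Lpl ratio was -0.66 in C1q macrophages outside the marked subsets, -0.60 in classical Ly6c2 monocytes and -1.19 in monocytes outside the marked subsets.

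Fabp5, the fatty acid carrier, had log2 ratios of 0.36 in nonclassical monocytes and 0.24 in cycling C1q macrophages. It was -0.17 in monocytes outside the marked subsets, -0.27 in the Mmp12 and Mmp13 macrophages, -0.61 in C1q macrophages outside the marked subsets and -0.95 in the Clec5a, Fcgr4 and Gpr84 macrophages.

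Trem2, the lipid receptor, had a log2 ratio of 0.44 in classical Ly6c2 monocytes. It was -0.27 in monocytes outside the marked subsets, -0.25 in cycling C1q macrophages and -0.17 in C1q macrophages outside the marked subsets.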

How the results depend on the processing

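No paired analysis was possible because each group held a single library, and for the same reason no replicate could be left out. The ratios of the 10 genes in the class and both gates gave 420 values over 14 alternatives, and no called ratio changed sign. Dropping the UMI minimum per gene could not change these ratios or their calls, since all 10 genes passed it. The monocyte gate of Ccr2, Chil3 and Hp could not change those of the class, whose cells it left the same. In the class the calls of Apoe, Ch25h and Lpl held in 14 of 14 and that of Trem2 in 13, and Cd36 and Plin2, not called, were called higher in 1 and 5. In macrophages the calls of Apoe, Cd36 and Plin2 held in 14 of 14 and that of Ch25h in 13. In monocytes the call of Lpl held in 14 and that of Apoe in 12. Of the genes not called there, Ch25h was called lower in 6. Abca1 and Plin2 were called higher in 2 each, and Msr1 and Cd36 in 1 each. Among ratios not called, those of Cd36 (-0.14 to 0.61) and Trem2 (-0.38 to 0.03) in monocytes and of Lpl (-0.50 to 0.12), Abca1 (-0.12 to 0.11) and Fabp5 (-0.52 to 0.02) in macrophages took either sign. The number of the 10 called in monocytes was 4 without doublet removal and 4 with gates on all UMIs, against 2. Over all genes in monocytes, 383 were higher and 392 lower without doublet removal. The counts were 422 and 361 with gates on all UMIs, against 385 and 429. With a call at 2-fold the number of the 10 called was 2 in the class, 1 in monocytes and 1 in macrophages, against 4, 2 and 4. At 2-fold 387 of 12097 genes were higher and 635 lower in the class. The counts were 180 and 215 of 10585 in monocytes, and 284 and 289 of 11344 in macrophages. The median ratio in macrophages was 0.088 with barcodes of at least 500 UMIs, against -0.07. The class median was -0.21 with TMM scaling and -0.37 with CPM without mitochondrial and ribosomal protein genes, against -0.30. The higher share of all calls was 47.9% in the class and 60.5% in monocytes with TMM scaling, against 37.5% and 47.3%. With CPM without those genes it was 35.8% in monocytes and 33.6% in macrophages, against 47.3% and 45.2%.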
